A study of Mus musculus with 2 samples.

Results

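Myosin heavy and light chain genes were followed in regulatory T (Treg) cells of wild-type and Nr4a-TKO mice. The members were chosen by gene name and not by a measured value: they are all non-control probes named Myo, Myh or Myl followed by a number in the array files. This gave 73 of 55681 probes and 49 of 34960 gene names. They were split into 8 non-muscle genes (heavy chains Myh9, Myh10 and Myh14 and light chains Myl6, Myl6b, Myl9, Myl12a and Myl12b), 24 unconventional genes (every Myo), 16 muscle genes and Myl10, a light chain left unclassed. Treg cells hold back the responses of other immune cells, and the Nr4a genes encode related nuclear receptors.

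Total RNA of 1 sample of sorted Treg cells per genotype was labelled with Cy3 and hybridised to 1-colour Agilent mouse arrays. Both groups were 5 weeks old, and the labels give no treatment. The labels describe the second genotype only as Nr4a-TKO, and the design text as Nr4a-deficient. Which alleles were altered, any Cre driver, the sex, the sort markers and the number of mice pooled are not given in the sources used here. Since each genotype has a single array, no difference has a replicate check and no p-value can be given. Differences are on the log2 scale, Nr4a-TKO minus wild-type, with each array set to its own 75th percentile. Every direction is drawn from the label of the second array, which is called the array labelled Nr4a-TKO because the Nr4a probes bore that label out only in part.

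Myosins are motors that move along, or pull on, actin filaments. Class II myosins join heavy chains to essential and regulatory light chains and assemble into filaments, in the sarcomere of muscle and in the contractile cortex of other cells. Unconventional myosins mostly work outside such filaments, where they tether membrane to actin or carry cargo. In T cells, non-muscle myosin II takes part in crawling and in actin flow at the synapse, and class I myosins tie the plasma membrane to the cortex.

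Probe sequences from the scanner files are shown for 4 genes. They are Myo6, which differed most, Myo1f, which was higher by each of its probes, Myl6, a light chain of non-muscle myosin II, and Myo18a, whose probes did not give 1 size of difference. Each is the 60-base probe, 5′ to 3′, and the coordinates are those of the files on mm9. Capitals mark a stop codon that closes a frame open over the rest of the Myo1f probe. The Myl6 probe covers 142 genome bases and the Myo18a probe 846, so the ends of each lie apart in the genome. The files give no exon, intron or UTR for a probe.
Myo6, chr9:80155567-80155626: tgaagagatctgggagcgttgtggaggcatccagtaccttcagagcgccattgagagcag
Myo1f, chr17:33744261-33744320: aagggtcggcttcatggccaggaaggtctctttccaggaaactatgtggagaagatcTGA
Myl6, chr10:127929163-127929304: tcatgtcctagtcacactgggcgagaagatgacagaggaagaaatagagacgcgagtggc
Myo18a, chr11:77667357-77668202: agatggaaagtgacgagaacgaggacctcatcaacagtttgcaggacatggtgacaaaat

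The arrays checked their labels only in part. The array labelled Nr4a-TKO read 7.04-fold lower for Nr4a3, while Nr4a1 differed by 0.060 and Nr4a2 was higher by 2.54-fold and 2.05-fold at its 2 probes. Of 7 Treg markers, all measured, 3 were 2-fold or more lower and 1 higher, and Foxp3, which defines the cells, was 17.2-fold lower. Of the 6 T cell markers on the arrays, 0 passed 2-fold, with a median of -0.37. Cd3d, Cd3e, Cd3g and Cd4 gave -0.52, -0.36, -0.39 and -0.52, while Lck gave 0.043 and Cd5 0.36. All 7 Xist probes gave more signal for the array labelled Nr4a-TKO, by at least 61.3-fold at the least bright. With 1 array each, a difference in sex between the arrays, which Xist can mark, cannot be told apart from genotype. No member lies on the X or Y chromosome, but this does not cover effects of sex on genes of other chromosomes. The part of the marker and Xist differences in the myosin results was not tested. Of the 55676 probes kept, 66.0% were well above background in the scanner's own call for wild-type and 63.9% for Nr4a-TKO. In bulk RNA, fewer cells of a type and less RNA per cell cannot be told apart.

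Most myosin genes differed little between the arrays. Of the 49 genes, 40 were well above background on both arrays, 2 on the array labelled Nr4a-TKO only and 7 on neither. Among the 40, Myo1f and Myl6b were higher by 2-fold or more, Myo6 and Myo1e lower by as much, and 36 lay between. Of the 23493 genes with signal on both, 3.15% were higher by 2-fold or more, 3.06% were lower and 6.22% passed 2-fold either way. Counts of 2 and 2 in 40 lie near that background. The share of all genes past 2-fold varied with mean signal. It was 3.63% under 100, 10.9% at 100 to 1000 and 4.56% at 1000 and over. Of the members, 0 of 14, 3 of 15 and 1 of 11 passed in these ranges. At 1.5-fold the members counted 4 higher and 3 lower, where 15.7% of all genes passed either way. The median difference was 0.025 over the 40 members and 0.079 over all genes. Of the members, 31 (77.5%) lay within 0.5 of 0 on the log2 scale, as did 79.6% of all genes.

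**Figure D1:**
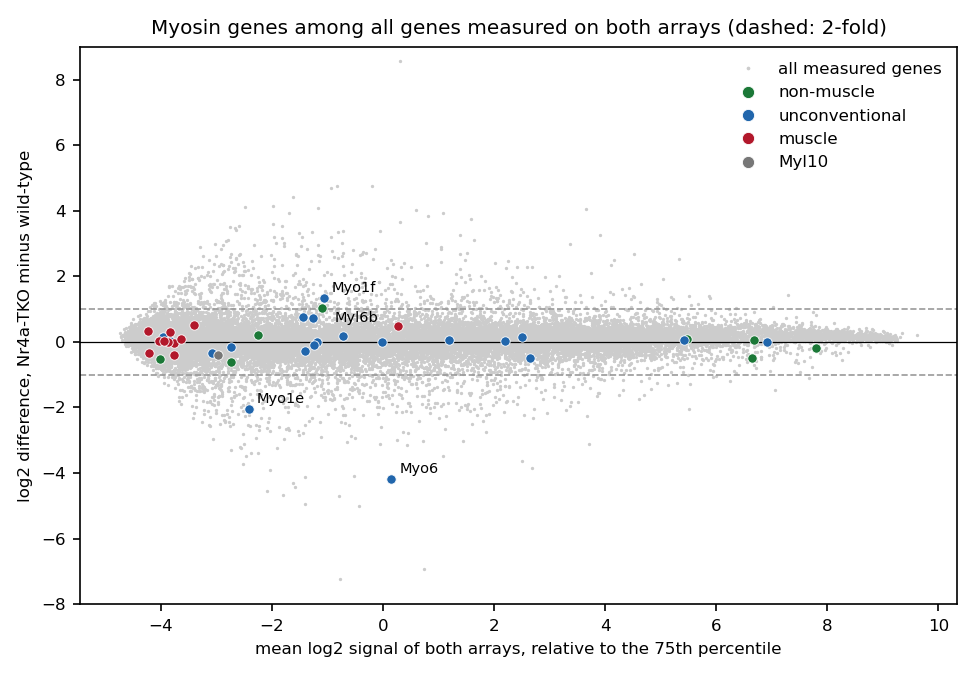
Log2 difference (Nr4a-TKO minus wild-type) against mean log2 signal for each gene measured on both arrays, in grey, with the 40 measured myosin genes coloured by class; dashed lines mark 2-fold. Myo6 at -4.19 and Myo1e at -2.04 stand below the lower line, Myo1f at 1.33 and Myl6b at 1.05 above the upper line, and the other 36 lie between.

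The precision of a difference depended on the signal. Each myosin probe had 1 spot per array, so its own spot error was not measured. Among other probes with 3 or more spots, the SD between spots gave a median of 0.34 for a difference at signals under 100 (41 probes). It gave 0.12 at 100 to 1000 (59 probes) and 0.066 at 1000 and over (162 probes). The 14 measured members with mean signals under 100 therefore had the least precise differences. These SDs hold no variation between mice.

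The heavy chains of non-muscle myosin II were slightly lower or alike. Myh9 encodes the IIA heavy chain, the main one in lymphocytes, and its brighter probe (chr15:77591019-77591078) read 97790 in wild-type and 63616 in the array labelled Nr4a-TKO. On the scaled log2 axis these are 6.88 and 6.40, a difference of -0.48. A second Myh9 probe, at signals of 128 and 77.5, gave -0.58, so both probes were lower by similar amounts. Myh10, the IIB heavy chain, read 154 and 92.2 and was lower by 1.52-fold, or 1.22-fold with normexp background correction. The second Myh10 probe was not well above background on either array. Myh14, the IIC heavy chain, read 162 and 169, a difference of 0.20 that became -0.082 with centring on spike-ins. None of these heavy chains passed 2-fold, where 6.22% of all genes did.

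Among the light chains that serve non-muscle myosin II, Myl6b stood apart from the other 4. Myl6 is the essential light chain, and its brighter probe read 196462 in wild-type and 155614 in the array labelled Nr4a-TKO. Its 2 probes gave -0.19 and -0.26. Myl12a and Myl12b are regulatory light chains, whose phosphorylation switches the motor on. Myl12a read 83342 and 78238, a scaled difference of 0.052, and Myl12b read 35912 and 34497, a difference of 0.085. Both turned direction with quantile normalization and with centring on spike-ins. Myl9, the regulatory light chain that smooth muscle also uses, read 61.8 and 38.9 and differed by -0.52. It lies in the range where spot error is largest, and was at -0.14 with normexp background correction.

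Myl6b encodes an essential light chain that slow muscle and other cells use. Its 1 probe (chr10:127931214-127931273) read 272 in wild-type and 508 in the array labelled Nr4a-TKO, which is 2.06-fold higher after scaling. It came under 2-fold under 3 of 10 alternatives, at 1.88-fold with normexp, 1.69-fold with spike-in centring and a difference of 0.996 when scaled on probes well above background. Myl6b and Myl6 are neighbours on chromosome 10, with 1910 bases between their nearest probes. Their differences were opposite in sign, 1.05 and -0.19. Myl12a and Myl12b, neighbours on chromosome 17 with 20183 bases between their probes, both differed by under 0.1.

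**Figure D2:**
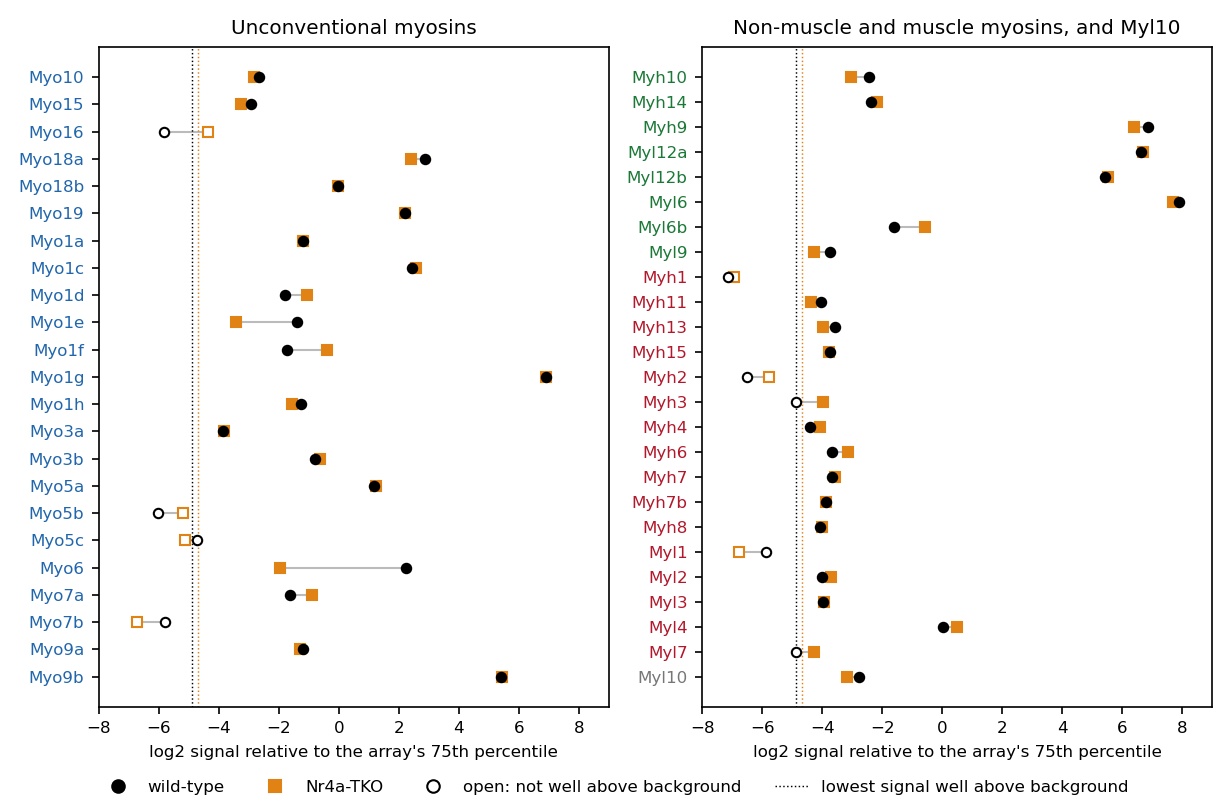
Log2 signal relative to each array's 75th percentile for 48 of the 49 myosin genes in wild-type (black circles) and in the array labelled Nr4a-TKO (orange squares), with gene names coloured by class (blue unconventional, green non-muscle, red muscle, grey Myl10). Open symbols were not well above background and dotted lines mark the lowest signal that was; only Myo6, Myo1e, Myo1f and Myl6b among the filled pairs are 2-fold or more apart, and the measured muscle genes other than Myl4 sit just above the dotted lines, with Myh1, Myh2 and Myl1 below them.

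The unconventional myosins held the largest single differences, in Myo6 and Myo1e. Of 24 genes, 20 were measured on both arrays, of which 1 was past 2-fold upward, 2 downward and 17 between, where 6.22% of all genes passed either way. Their median was 0.017 and their SD 1.13, against an SD of 0.56 over all genes. Myo5b, Myo5c, Myo7b and Myo16 stayed under the background call on both arrays. Myo5b and Myo5c belong to the cargo-carrying class V, and Myo7b is known from intestinal microvilli.

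Myo6 encodes myosin VI, the motor that walks towards the pointed end of actin and serves endocytosis and vesicle traffic. Its only probe read 3925 in wild-type and 195 in the array labelled Nr4a-TKO. The scaled log2 values were 2.24 and -1.95, which is 18.2-fold lower. This was 14.3-fold with normexp and 22.2-fold with spike-in centring, and it stayed past 2-fold under all 10 alternatives run. With 1 probe and 1 spot per array, no second measurement of Myo6 was made.

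Of the 8 class I myosins, single-headed motors that link membrane to actin, Myo1e and Myo1f went opposite ways. Both belong to the long-tailed class I myosins, which end in an SH3 domain. Myo1e (chr9:70247354-70247413) read 315 in wild-type and 69.2 in the array labelled Nr4a-TKO, which is 4.12-fold lower. Its signal in the array labelled Nr4a-TKO lies in the range of large spot error, and with normexp it was 2.60-fold lower.

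Myo1f, which is known from immune cells, was higher at both of its probes. The brighter probe (chr17:33744604-33744663) read 250 and 568, which is 2.51-fold higher after scaling. The probe shown above read 106 and 297, which is 3.08-fold higher. The gap between both probes, 0.29, was smaller than either difference. Myo1f stayed at least 2-fold higher under all 10 alternatives run, between 2.06-fold and 2.78-fold.

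The other class I genes differed less. Myo1g, known for its restriction to blood cells, read 99965 and 91316, a scaled difference of 0.013 whose direction turned under 4 of 5 scalings. Myo1c, which serves membrane tension and transport, read 4461 and 4510 and gave 0.16 and 0.11 at its 2 probes, with the brighter at -0.13 with spike-in centring. Myo1d was higher by 1.68-fold, at 237 and 359, with a second probe not well above background on either array. Myo1h read 344 and 257 (-0.28) and Myo1a 364 and 328 (-0.0078).

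Most of the remaining unconventional myosins were alike on both arrays. Myo9b, a motor that also holds a GTPase-activating domain, read 35100 and 32760 and gave 0.044 and 0.040 at its 2 probes, a direction that turned under 3 of 5 scalings. Its relative Myo9a gave -0.034, -0.11 and -0.31 at 3 probes. Myo5a, which carries vesicles and pigment granules, read 1856 and 1763 (0.069). Myo7a, a motor of sensory hair cells, was higher by 1.66-fold at 269 and 405, and kept its direction in every alternative run. Myo3b read 477 and 485 (0.17) and Myo3a 57.4 and 53.3 (0.036). Myo10, a motor of filopodia tips, read 131 and 106 (-0.16), and Myo15 read 110 and 79.3 (-0.33).

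Myo18a and Myo19 depended on the probe. Myo18a, a class XVIII myosin with little motor activity of its own, read 6157 and 3952 at its brightest probe, a difference of -0.50. The other 2 probes gave -1.20 at 362 and 143 and -0.044 at 437 and 384, the latter being the probe shown above. Its 3 probes thus ran from nearly no difference to over 2-fold lower. Myo19, which moves mitochondria, was at 0.022 by its brighter probe (3791 and 3486) and -0.83 by the other (117 and 59.2). Myo18b was at 0.0039 by its brightest probe (816 and 741), with 2 further probes at -0.018 and -0.21.

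**Figure D3:**
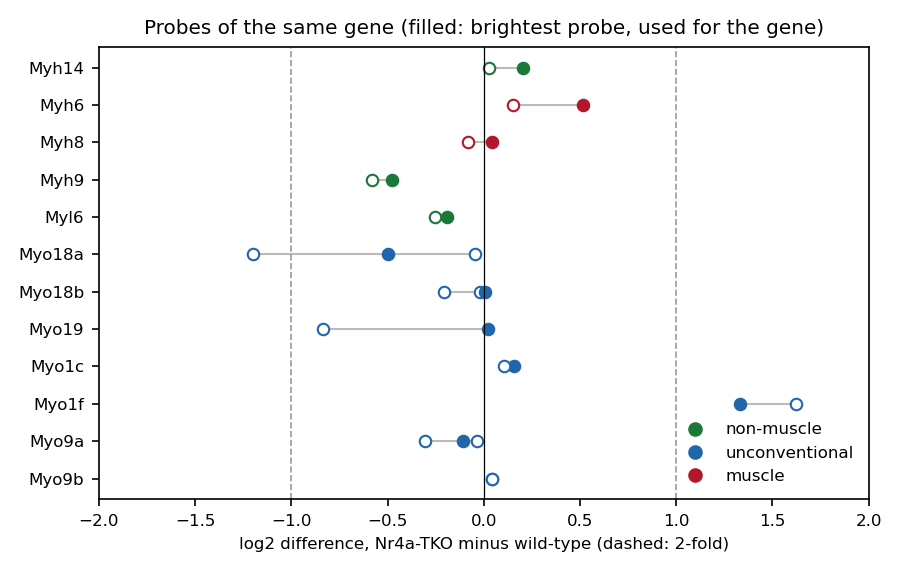
Log2 difference (Nr4a-TKO minus wild-type) of each probe for the 12 myosin genes with several probes well above background on both arrays; filled points are the brightest probe, which stands for the gene, and dashed lines mark 2-fold. Both Myo1f probes lie above 2-fold, while the Myo18a probes spread from -1.20 to -0.044 and those of Myo19 from -0.83 to 0.022.

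Probes of 1 gene lay about as close together as over all genes. Among 12 genes with more than 1 measured probe, the probes of 9 shared a direction. No such share was counted over all genes. The gap between the highest and lowest probe had a median of 0.19, against 0.25 over 6748 genes of the arrays. The largest gap, 1.15 in Myo18a, lay near the 95th percentile of all genes, 1.16. The 3 genes with probes on both sides of 0 were Myh8, Myo18b and Myo19.

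Muscle myosins were close to the detection limit on both arrays. Of 16 genes, 11 were well above background on both, and only Myl4 had a signal of at least 100 on both. Myl4, the essential light chain of the atrium and of embryonic muscle, read 850 and 1067, a difference of 0.47 that was 0.19 with spike-in centring. The 8 measured muscle heavy chains read between 36.2 and 84.8 over both arrays, where the lowest signals called well above background were 28.1 and 29.3. The median negative control read 6.66 and 6.76. None of the 11 passed 2-fold, with a range of -0.40 (Myh13) to 0.51 (Myh6), and the spot error at these signals was 0.34. Of all genes with mean signals under 100, 3.63% passed 2-fold, so the count lies near that background.

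The muscle genes had little to tell apart. Myh6 and Myh7 encode the heavy chains of heart muscle, and they differed by 0.51 and 0.089, with a second Myh6 probe at 0.15. Myh11, the smooth muscle heavy chain, read 50.5 and 36.2 (-0.34). The heavy chain genes Myh7b and Myh15 gave -0.016 and -0.037. The ventricular light chain genes Myl2 and Myl3 gave 0.30 and 0.029. The 6 muscle heavy chain genes that lie together on chromosome 11, between 66915107 and 67182710, encode the heavy chains of skeletal muscle. There Myh4, Myh8 and Myh13 gave 0.33, 0.041 and -0.40, while Myh1 and Myh2 stayed under the background call on both arrays. Myl1, a light chain of fast skeletal muscle, was not well above background on either array.

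Myh3 and Myl7 were well above background only in the array labelled Nr4a-TKO. Myh3, the embryonic heavy chain, read 28.2 and 47.4 at its brighter probe, which gives a bound of at least 1.86-fold higher, and 7.54 and 46.2 at the other, at least 1.82-fold. Myl7, the atrial regulatory light chain, read 28.3 and 38.8, at least 1.51-fold higher. A bound sets the bright array against the higher of the dim probe's own signal and the lowest signal called well above background. None of these bounds reached 2-fold, which 27.4% of the 944 genes seen only on that array did.

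Myl10, a regulatory light chain, read 122 and 84.1 and differed by -0.39.

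Set side by side, the 3 classes had medians near 0, and the order of their spreads depended on the measure. Medians were -0.070 for the 8 non-muscle, 0.017 for the 20 unconventional and 0.041 for the 11 muscle genes. Spike-in centring, which shifts every gene by -0.29, made all 3 negative. Differences ran from -0.60 to 1.05 in non-muscle, -4.19 to 1.33 in unconventional and -0.40 to 0.51 in muscle genes. The SDs were 0.54, 1.13 and 0.30 in that order, while the median sizes of a difference, which single genes move little, were 0.34, 0.16 and 0.30, and 0.24 over all genes. With 1 array per genotype the classes were not tested against each other. With signals of at least 100 required on both arrays, 6 of 8 non-muscle, 16 of 20 unconventional and 1 of 11 muscle genes remained. Of those 23 members, Myo1f, Myl6b and Myo6 passed 2-fold, where 5.45% of 16819 genes passed 2-fold in either direction. Directions of small differences depended on the scaling: 16 of the 40 members turned under at least 1 of 5 scalings, the largest of them Myh14 at 0.20. The share of all genes that turned was not counted.

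**Figure D4:**
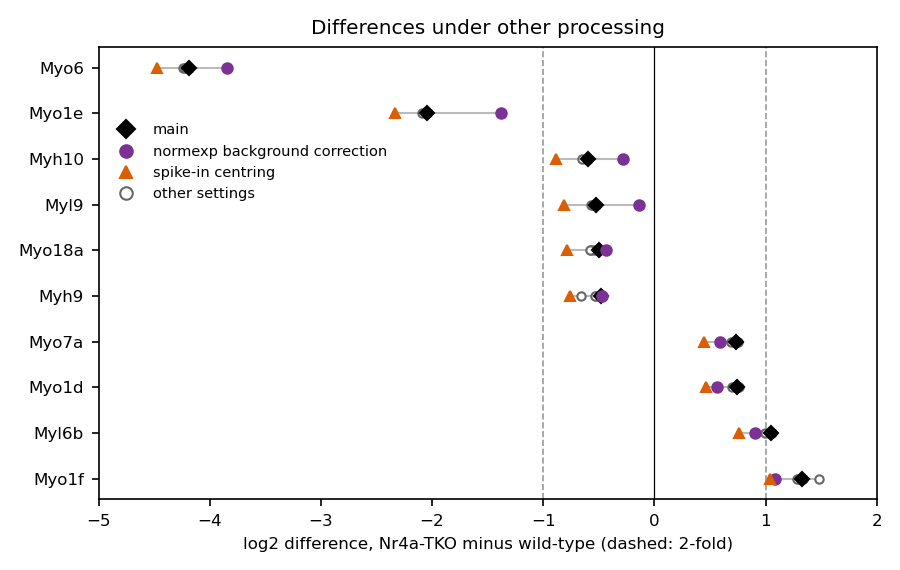
Log2 difference (Nr4a-TKO minus wild-type) of 10 myosin genes in the main setting (black diamonds) and under the alternatives run, with normexp background correction in purple and spike-in centring in orange; dashed lines mark 2-fold. Myo6, Myo1e and Myo1f stay past 2-fold in every setting that measured them (Myo1e drops out where signals of at least 100 are required), and Myl6b falls between 0.76 and 1.06.

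Genes that act on or with myosin were described from 5 lists, chosen with earlier results of these data known. Light chain phosphorylation is set by kinases such as Rock1 and Rock2 and undone by a phosphatase with a targeting subunit. Of 19 such genes, 16 were measured on both arrays, with a median of -0.081. Among these 16, 0 passed 2-fold, where 6.22% of all genes did, so the count lies near that background. Rock1 gave -0.088, and Rock2 gave -0.084 but 0.23 with normexp and 0.068 as the mean over its probes. Rhoa gave -0.015 and the targeting subunit Ppp1r12a -0.079, and both turned positive as means over probes, at 0.028 and 0.0049. Arhgef1, which activates RhoA, gave -0.55. Cdc42bpa, a kinase related to Rock1 and Rock2, was well above background only in the array labelled Nr4a-TKO. It was at least 2.55-fold higher, but 1.36-fold with normexp. Of the 944 genes seen only on that array, 27.4% had a bound of at least 2-fold.

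Of 8 chaperones and partners 7 were measured, with a median of 0.14. Mylip, a ubiquitin ligase named for a myosin light chain, was 2.16-fold lower (2321 and 975 in signal), and 0 members were 2-fold higher. Of all genes, 6.22% passed 2-fold either way. Unc45a, the chaperone that folds myosin heads in most cells, gave -0.33.

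Most adaptors of unconventional myosins differed little. Of 12 genes 10 were measured, with a median of 0.066. The myosin VI adaptors Gipc1, Tom1, Optn and Tax1bp1 gave 0.12, 0.43, -0.0085 and 0.076, with Gipc1 and Tax1bp1 negative under spike-in centring, and Dab2 was not well above background on either array. Rab27a, which brings Myo5a to its cargo, gave 0.056, also negative with spike-in centring. The 1 member past 2-fold, where 6.22% of all genes passed, was the Rab GTPase Rab6b, 152-fold lower, or 52.4-fold with normexp. Its signal was 6002 in wild-type and 35.8, near the detection limit, in the array labelled Nr4a-TKO. At -7.25 it was the lowest difference of all 23493 genes measured on both arrays. The list was chosen with earlier results of these data known, so Rab6b says nothing of adaptors as a group.

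All 18 genes of cytoplasmic actin and its regulators were measured and 0 passed 2-fold, where 6.22% of all genes did, a count near that background. The median of the 18 was 0.036. They ran from Flna, an actin cross-linker, at -0.53 to Vim, an intermediate filament gene, at 0.46. The actin genes Actb and Actg1 gave 0.12 and 0.13, each negative with spike-in centring.

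Sarcomere genes outside the rule included some large differences. Of 26 genes 18 were measured on both arrays, with a median of -0.065. Of these, 3 were past 2-fold downward and 0 upward, where 3.06% and 3.15% of all genes were. This list too was chosen with earlier results of these data known, so the count says nothing of sarcomere genes as a group. The lower ones were the troponin genes Tnnt2 (9.35-fold), Tnni1 (8.30-fold) and Tnnt3 (2.35-fold), or 4.54-fold, 6.03-fold and 1.53-fold with normexp. Actc1, Myom2 and Mybpc3 were seen only in the array labelled Nr4a-TKO. Actc1, the cardiac actin gene, was at least 17.0-fold higher, Myom2, an M-band gene, at least 2.88-fold and Mybpc3 at least 1.46-fold. Bounds of 2-fold or more were reached by 27.4% of the 944 genes seen only on that array. With normexp Actc1, Myom2 and Mybpc3 were 8.28-fold, 2.03-fold and 1.29-fold higher. The light chain gene Mylpf was seen only in wild-type, at least 1.48-fold higher there, where 14.7% of the 1546 genes seen only in wild-type reached 2-fold.

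**Figure D5:**
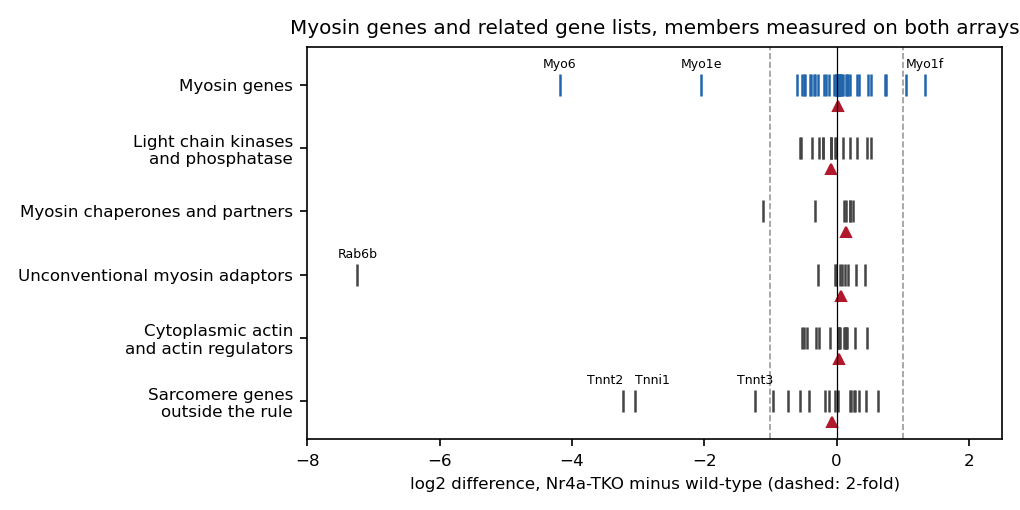
Log2 difference (Nr4a-TKO minus wild-type) of each gene measured on both arrays (vertical marks) among the myosin genes and in 5 related lists; triangles mark list medians and dashed lines 2-fold. The medians lie between -0.081 and 0.14, and single genes such as Myo6, Rab6b, Tnnt2 and Tnni1 stand far to the left.

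Markers of muscle cells were mostly not detected. Of 6, only Des was well above background on both arrays, at 0.024, and Myod1, Myog, Pax7, Ckm and Mb were so on neither. Their summed signal was 117 against 87.6 (wild-type first). Of 6 smooth muscle and stromal markers, Acta2, Tagln and Pecam1 were measured on both, at -0.41, -0.18 and -0.70. Col1a1, seen only in the array labelled Nr4a-TKO, was at least 2.16-fold higher. Of the 944 genes seen only there, 27.4% had a bound of at least 2-fold. Cnn1 and Pdgfrb were on neither, and the summed signals of the 6 were 2100 and 1478. Of 5 myeloid markers 4 were measured on both arrays and Mpo was 7.76-fold lower. Of 4 epithelial markers 3 were measured, with Krt18 2.43-fold higher and Epcam and Cdh1 at -0.18 and -0.40, and of 4 B cell markers 2, with Cd79b 2.51-fold higher and Ms4a1 on neither array. Summed signals were 11609 and 9760 for myeloid, 376 and 471 for epithelial and 481 and 892 for B cell markers. Of the CD8 and NK markers 3 of 4 were measured and of the erythroid and platelet markers 1 of 4 on the arrays, with 0 past 2-fold in each. The part of these cell types in the myosin differences was not tested.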

How the data were processed

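The deposited scanner files hold 1 intensity per spot, which per the file headers Agilent Feature Extraction (10.10.1.1) had background-subtracted and detrended, giving dim spots surrogate values. The arrays lay on 1 slide with 1 scan time and carried mm9 annotation, per the file headers. The deposited log2 table held the same signals less 1 constant per array. Its scale and direction follow from the scanner values, and its column medians were -3.54 and -3.53. The rule behind its constant stays unknown.

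Control spots and spots marked as outliers (156 and 117, none of a member) were left out. Spots of 1 probe were averaged as log2 signals, and the 75th percentile of each array was subtracted. A gene was its probe with the highest mean signal, and counted as measured where both arrays called this probe well above background. No spot was saturated. Probe levels were not set against each other. Probes were checked through RefSeq accessions (27509 of 55681 matched; assembly GRCm38.p6, names only); of the member probes 63 of 73 matched, all under the file's name.

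With 1 array per genotype no test was run; their number limits the precision. Differences of 2-fold were counted. The counting step was tested on simulated data for the comparison of Nr4a-TKO with wild-type, where it recovered 200 of 200 genes changed 4-fold among 25128, with 0 false calls. The simulated second array was a copy of the wild-type array and its background calls, with small noise of 1 size at every signal. The changed genes had wild-type signals of at least 200. The result shows only that the counting runs correctly and gives no error rate for the real arrays. Members and lists were chosen with earlier results of these data known. Members were named, apart from items that are not reported here; from related lists, up to 6 genes with large differences and up to 4 others. Alternatives were normexp (offset 50), 5 scalings (array median, probes well above background, quantile, spike-ins, the deposited table), 2 filters, the mean over probes, outlier spots kept, 1.5-fold and 3-fold, and a class change. Python 3.11.15, numpy 2.4.6, pandas 2.3.3, matplotlib 3.10.9, R 4.3.3 and limma 3.58.1 were used.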

Additional observations from a re-analysis of the deposited data

How the results depend on the processing

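Myo6, Myo1e and Myo1f stayed past 2-fold in every alternative that measured them, and Myl6b did not under 3. No measured member under 2-fold passed it in an alternative run with the same threshold. The 2 members at least 2-fold higher became 1 with normexp, with scaling on probes well above background and with spike-in centring, 4 at 1.5-fold, 0 at 3-fold and 3 without a filter on dim probes, where Myo16 (2.76-fold, on neither array well above background) is added. The 2 lower ones became 1 where signals of at least 100 were required, since Myo1e then drops out, and 3 at 1.5-fold. With spike-in centring, which shifts every gene by -0.29, the medians were -0.26 over all members, -0.36 over non-muscle, -0.27 over unconventional and -0.24 over muscle genes, and 25.6% of all genes past 2-fold were higher against 50.7% in the main setting. The non-muscle median was -0.26 with quantile normalization, 0.069 with signals of at least 100 and 0.052 with Myl6, Myl6b and Myl9 counted as muscle. Without a filter on dim probes the muscle median was 0.16, and it was 0.47 with signals of at least 100, where Myl4 alone is left. The cause of the quantile shift was not tested. The counts over all genes moved from 741 higher and 720 lower to 478 and 457 with normexp, 441 and 1282 with spike-in centring, 1988 and 1834 without the filter and 458 and 459 with signals of at least 100. No paired analysis was possible because each genotype has 1 array, and no array could be left out.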

Other observations

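Promoters of the members, taken from RefSeq (GRCm38.p6, 250 bases before to 50 after each start), were searched on both strands for AAAGGTCA, the element that Nr4a receptors bind as monomers. It was in 0 of 54 promoters of 43 members and in 1.51% of all 32851 promoters. No match says only that these letters are not in this window.

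Probes of members that were well above background on both arrays had a median GC content of 45.0%, and the other member probes 36.7%. The same medians over all probes of the arrays were not taken, so this is not given as a trait of myosin probes.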
